A study of Danio rerio with 3 samples.

Results

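This comparison set the zebrafish embryo library made after Z-REX with HNE against the library made after Z-REX with HDE, over 18563 of the 31950 genes in the count table, those that averaged 10 counts or more across the 3 libraries of the series. HNE (4-hydroxynonenal) and HDE (4-hydroxydodecenal) are reactive aldehydes of the same enal type that form when lipids are oxidised, and HDE carries the longer alkyl chain. In Z-REX a caged precursor of the aldehyde is anchored to a Halo-tagged protein in the living embryo, and light releases the aldehyde next to that protein, here Keap1. Whole embryos of both groups expressed a Halo-TEV-Keap1 fusion from mRNA injected into the yolk at the 1- to 4-cell stage and came from one protocol, with a caged precursor at 1 µM for 30 h in the dark, 365 nm light at 0.5 mW/cm2 for 3 min, and RNA taken 1.5 h later. The embryos were of the line Tg(lyz:TagRFP), in which the lyz promoter drives a red fluorescent protein. A non-treated library of embryos that also expressed the fusion stands beside them.

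Several facts limit the groups as models. The labels name only the HNE precursor in the shared protocol, so the HDE precursor's dose is taken from a text that does not mention HDE. The labels number the fusion 1 in the non-treated sample, 2 in the HNE sample and 3 in the HDE sample, whereas the protocol names Keap1 throughout. Other assays of the study keep non-treated embryos apart from a light-alone group, which the 3 libraries lack, so light cannot be told apart from the released enal relative to the non-treated library. The number of embryos pooled in a library is not given in the sources used here, and the injected mRNA was not restricted to 1 cell type. Most of all, each condition has 1 library. The question was which tissues and pathways separate the responses to the 2 enals, as 1 pair of structurally related compounds, and any test on the reads compares these libraries, not the compounds.

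Keap1 is the sensor that holds the transcription factor Nrf2 at a low level. Electrophiles such as HNE modify cysteines of Keap1, Nrf2 then builds up, and genes of glutathione metabolism and detoxification are transcribed. The same kind of electrophile can also touch the heat-shock, unfolded-protein and oxygen-sensing pathways, each of which has its own sensor and its own set of target genes. Lists of such genes, and of genes that mark the tissues of the embryo, organise the values that follow.

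The HNE library held 17704410 counts and the HDE library 15084294, beside 17996111 in the non-treated library, and the 20 most abundant genes took 12.5 to 12.9% of the counts in all 3. Ratios are HNE over HDE after scaling each library by trimmed-mean normalization, each with an exact 95% interval that covers counting error only. A gene was called where an exact binomial test of its reads in the 2 libraries passed a Benjamini-Hochberg adjusted p threshold of 0.05, with all 18563 genes in the adjustment, and the ratio was at least 1.5-fold. Of 30 markers of 10 tissues, 29 passed the count minimum, and the exception was fabp10a, a liver gene, with 1 count in the HNE library, 0 in the HDE library and 0 in the non-treated library. Trends with length and level were taken over genes with whole counts and a mean of at least 50 counts. The median log2 ratio was higher in the fifth of genes with the shortest implied transcripts (0.05) than in the fifth with the longest (-0.05). It also rose from -0.05 in the fifth with the fewest counts to 0.04 in the fifth with the most. The part of these trends in the results was not tested.

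By this rule 651 genes were called, or 3.51% of those tested. The HNE library was higher at 224 of them (1.21%) and lower at 427 (2.30%), while the median log2 ratio over all genes was 0.00, with quartiles at -0.18 and 0.16. The split depended on scaling: total counts gave 161 higher and 542 lower, and total counts without the 20 most abundant genes gave 166 higher and 520 lower. At a ratio of at least 2-fold, 73 genes were higher and 175 lower. The non-treated library lay between the HNE and HDE libraries at 164 of the 224 higher genes and at 309 of the 427 lower genes. Called genes were selected for a gap between the HNE and HDE libraries, which by itself favours a non-treated value in between. The share over all genes tested was not computed, so these counts, and the same order at named genes below, are descriptive only. The calls leave out any spread between embryos: with an assumed coefficient of variation of 0.2 between libraries, edgeR's exact test called 19 genes, among them 3 of the hypoxia list, tcap, nppb and hspb9, and no crystallin, leukocyte, cathepsin or Hsp70 gene. Of the called genes, 134 of 651 belonged to any of the 62 lists, beside 1854 of the 18563 genes tested. The lists were chosen with earlier results of these data known, so these shares are descriptive only. With 3.51% of all genes called, a short list holds few calls or none. A list with 1 call or none therefore does not by itself differ from all genes.

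**Figure D1:**
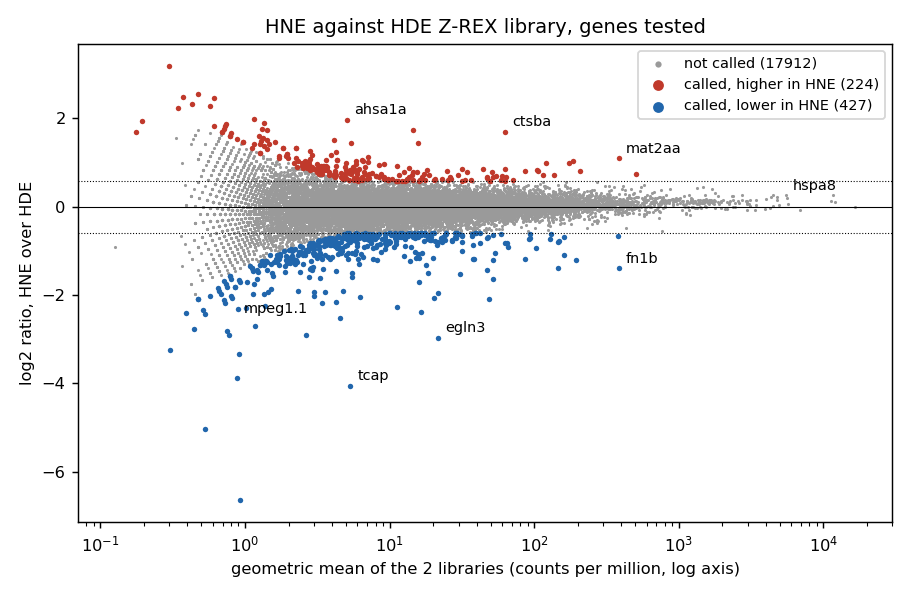
Each point is 1 of the 18563 genes tested, with the geometric mean of the HNE and HDE libraries in CPM (counts scaled to library size) on a log axis and the log2 ratio of HNE over HDE on the other. Red points are the 224 genes called higher in the HNE library, blue points the 427 called lower, grey points the rest, and the dotted lines mark 1.5-fold; among the named points, tcap lies at -4.06, egln3 at -2.97, ahsa1a at 1.97 and ctsba at 1.70.

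Among the pathway lists, the hypoxia-inducible genes gave the most calls between the enals, nearly all of them lower after HNE. These genes are switched on by Hif, a transcription factor that oxygen-dependent prolyl hydroxylases mark for destruction when oxygen is plentiful. Of 45 genes tested, 13 were called lower after HNE and 1 higher, and 39 lay below 0, with a median log2 ratio of -0.33 beside 0.00 over all genes. Relative to the shared non-treated library, the list median was -0.11 for HNE and 0.20 for HDE.

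The lowest ratio of the list was that of an oxygen sensor. egln3, a prolyl hydroxylase that is also a Hif target, had 136 counts after HNE and 943 after HDE, beside 286 without treatment, which gave a ratio of 0.128 (0.106 to 0.153) and a log2 ratio of -2.97. HNE was thus the lowest and HDE the highest of the 3 libraries, with the non-treated library between. egln1a, another prolyl hydroxylase, had 14 counts after HNE and 31 after HDE against 13 in the non-treated library, with a log2 ratio of -1.32. hif1an, the asparaginyl hydroxylase that limits the activity of Hif, had 500 counts after HNE and 1191 after HDE, beside 646 without treatment, and a ratio of 0.372 (0.334 to 0.413). vhl, which encodes the subunit that recruits hydroxylated Hif to its ubiquitin ligase, had 106 counts after HNE and 172 after HDE, beside 128, and a log2 ratio of -0.87.

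Several effectors of the pathway were also called lower after HNE. p4ha1b, which encodes the catalytic subunit of collagen prolyl hydroxylase, had 413 counts after HNE and 1554 after HDE against 718 without treatment, a ratio of 0.235 (0.210 to 0.262). ankrd37, a Hif target in several species, had 90 counts after HNE and 382 after HDE, beside 178, and a log2 ratio of -2.26. cited2, which competes with Hif for a co-activator, had 317 counts after HNE and 810 after HDE, beside 480, with a log2 ratio of -1.53. In each of these, too, the non-treated value fell between the values of both enals, an order that selection for a gap between them favours. ddit4, an inhibitor of mTORC1 signalling, had 1003 counts after HNE and 2029 after HDE, beside 1378, a ratio of 0.438 (0.405 to 0.472). pfkfb3, which makes the activator of phosphofructokinase, had 159 counts after HNE and 328 after HDE, beside 235. epo, which encodes the hormone erythropoietin, had 25 counts after HNE and 50 after HDE against 35 in the non-treated library, with a ratio of 0.443 (0.262 to 0.729). The remaining called falls of the list were ero1l, angptl4 and pfkfb4a, between -1.22 and -0.63 on the log2 scale.

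The list also held exceptions. higd1a, a mitochondrial gene of the hypoxia response, had 352 counts after HNE and 206 after HDE, beside 242, and was the 1 gene called higher, at a ratio of 1.51 (1.27 to 1.8). That ratio only just passed the fold threshold. Total counts moved the median log2 ratio over all genes by -0.055, a shift that takes higd1a below it. vegfaa, the main vascular growth factor, had 238 counts after HNE and 231 after HDE, beside 260, and its interval of 0.758 to 1.1 included 1. ca9 had 73 counts after HNE and 70 after HDE, beside 102, with an interval of 0.656 to 1.3. None of the 8 Hif subunit genes was called, with 3 above 0 and 5 below, and hif1ab had a ratio of 1.04 (0.987 to 1.1). epas1a, also of this list, had 1598 counts after HNE and 1025 after HDE, beside 1463. Its ratio of 1.38 (1.275 to 1.494) was larger than counting error and below the fold threshold. None of the 34 glycolysis genes was called, although 25 of them lay below 0, with a median of -0.14. gapdh had 18839 counts after HNE and 18333 after HDE, a ratio of 0.909 (0.891 to 0.928), while ldhba had 12890 and 9962 counts, a ratio of 1.14 (1.11 to 1.18).

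Some genes outside the list, chosen after their values were seen, had low ratios. egln2, another prolyl hydroxylase gene, had 5 counts after HNE and 45 after HDE, beside 15 without treatment, a ratio of 0.0983 (0.0305 to 0.247). lepa, which encodes a leptin, had 5 counts after HNE and 31 after HDE, beside 7, a ratio of 0.143 (0.0433 to 0.370). Both rest on few reads in the HNE library, which the width of their intervals shows.

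**Figure D2:**
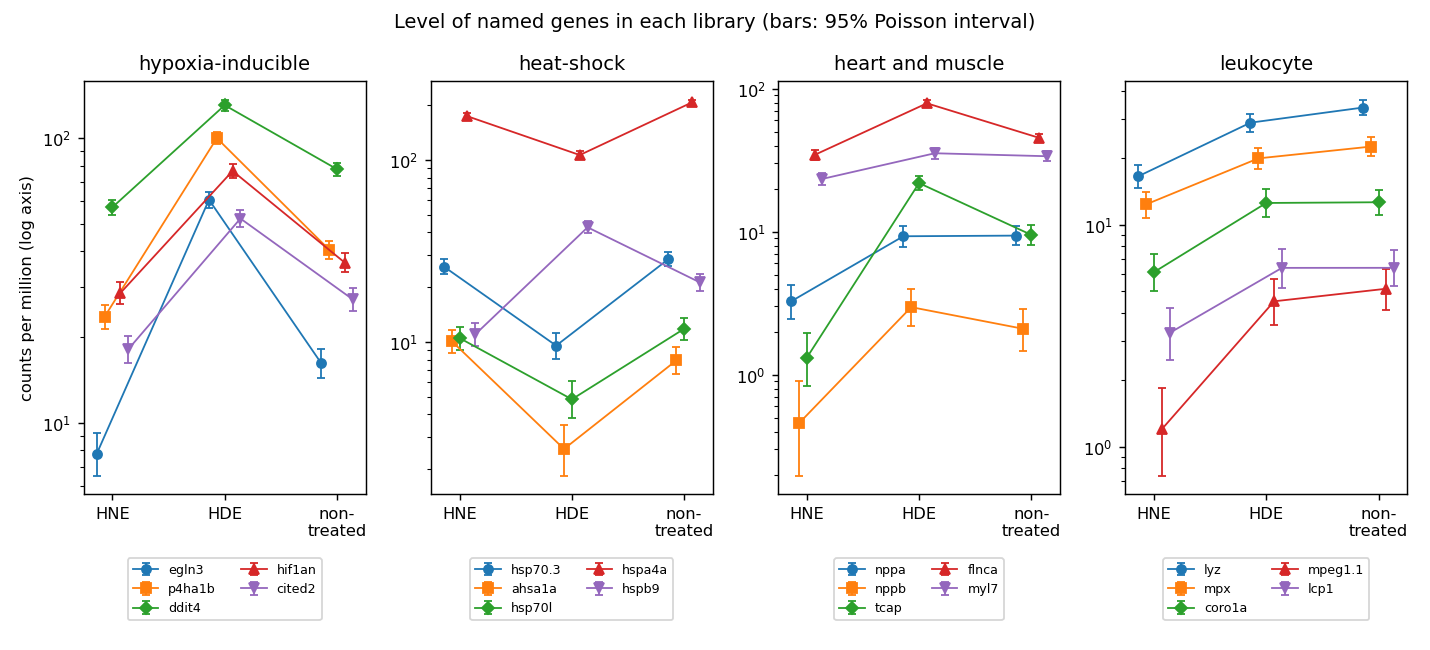
CPM on a log axis for 5 named genes in each of 4 groups, in the HNE, HDE and non-treated libraries from left to right, with lines joining the values of a gene and bars for the 95% Poisson interval of the count. In the hypoxia panel all 5 genes peak in the HDE library, in the heat-shock panel hsp70.3, ahsa1a, hsp70l and hspa4a dip there while hspb9 peaks, and in the leukocyte panel all 5 genes are lowest in the HNE library. All genes drawn were called between the HNE and HDE libraries and picked with their values known. Members without a call, such as vegfaa and ca9, are not drawn. lyz, mpx, coro1a and mpeg1.1 come from the study's table, selected from these same libraries, so these orders are descriptive only.

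Inducible heat-shock genes lay mostly in the other direction. Their products are chaperones and co-chaperones that Hsf1 switches on when unfolded protein accumulates in the cytosol. Of 33 tested, 8 were called higher after HNE and 2 lower, and 26 lay above 0, with a median log2 ratio of 0.31. Relative to the non-treated library the list median was -0.14 for HNE and -0.38 for HDE, so both were below it, and HDE by more.

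The Hsp70 genes gave the clearest values. hsp70.3 had 455 counts after HNE and 148 after HDE, beside 505 without treatment, a ratio of 2.72 (2.25 to 3.30). hsp70l had 184 counts after HNE and 75 after HDE, beside 209, a ratio of 2.17 (1.65 to 2.88), and hsp70.2 had 117 and 58 counts, beside 159. For hsp70.3 and hsp70l the HNE library was close to the non-treated library and the HDE library was the low one. For hsp70.2 the HDE library was also the lowest, and the HNE library lay between it and the non-treated library. ahsa1a, an activator of the Hsp90 ATPase, had 177 counts after HNE and 40 after HDE, beside 140, a ratio of 3.92 (2.77 to 5.67), the highest of the list. hspa4a, a nucleotide exchange factor of the Hsp110 family, had 3052 counts after HNE and 1653 after HDE, beside 3674, with a log2 ratio of 0.71. hsp90aa1.2 was also called, but it had a fractional count, as may arise where reads are shared between similar genes, so its value is uncertain.

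The constitutive chaperones differed less. hspa8 had 105588 counts after HNE and 77820 after HDE, beside 99439, a ratio of 1.2 (1.19 to 1.21), which is larger than counting error and below the 1.5-fold needed for a call. hsp90ab1 had 81899 counts after HNE and 61811 after HDE, beside 79156, a ratio of 1.17 (1.16 to 1.18). The called falls were small heat-shock genes: hspb9 had 193 counts after HNE and 662 after HDE, beside 376, a ratio of 0.258 (0.219 to 0.303). hspb11 had 189 counts after HNE and 372 after HDE, beside 242, a ratio of 0.450 (0.375 to 0.537). hspb1, also a small heat-shock gene, was not called, with 827 counts after HNE and 858 after HDE, beside 887.

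Other folding genes leaned the same way with few calls, a lean that some lists of other genes shared. The median was 0.13 for ribosomal protein, 0.15 for liver, 0.14 for heme synthesis and 0.11 for cell cycle genes. It was 0.00 for proteasome and 0.01 for respiratory chain genes. Among 63 chaperonin, prefoldin and DnaJ genes, 5 were called higher and none lower, with 48 above 0 and a median of 0.12. The called genes were DNAJA4, dnaja1, dnajb11, dnajb1b and dnajb9b, all J-domain co-chaperones of Hsp70, and none encoded a subunit of the chaperonin. dnajb11 fell below the fold threshold under both total-count scalings. DNAJA4 had 1213 counts after HNE and 662 after HDE, beside 1513. dnajb9b, which works in the endoplasmic reticulum, had 123 counts after HNE and 55 after HDE, beside 124, a ratio of 1.98 (1.43 to 2.77). It was the 1 gene called among 31 endoplasmic reticulum stress genes (3.23%, beside 3.51% of all genes). Of these 31 genes, 26 lay above 0, with a median of 0.15. hspa5, the abundant chaperone of that compartment, had 9394 counts after HNE and 6309 after HDE, beside 11420, a ratio of 1.32 (1.28 to 1.36). Among 21 mitochondrial chaperone and import genes 18 lay above 0, with a median of 0.19, and lonp1, a mitochondrial protease, was the 1 called, with 1033 counts after HNE and 586 after HDE, beside 1003. Its neighbours in function, hspd1 and hspa9, had ratios of 1.38 (1.33 to 1.44) and 1.39 (1.33 to 1.44), below the threshold.

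Of 35 Atf4 and serine synthesis genes, which respond to amino acid shortage, 3 were called higher and 1 lower, with a median of 0.16. mthfd2, a mitochondrial folate enzyme, had 1168 counts after HNE and 599 after HDE, beside 919, a ratio of 1.73 (1.56 to 1.91). sesn2, which signals leucine shortage to mTORC1 in mammals, had 152 counts after HNE and 78 after HDE, beside 109. asns, asparagine synthetase, had 1353 counts after HNE and 796 after HDE, beside 1141, at a ratio of 1.50 that only just passed the fold threshold and did not pass it under total-count scaling. nupr1 was the called fall, with 362 counts after HNE and 540 after HDE, beside 725. aldh1l2, the mitochondrial formyltetrahydrofolate dehydrogenase, had 1033 counts after HNE and 508 after HDE, beside 707, a ratio of 1.8 (1.62 to 2.0). It was the 1 gene called among 35 aldehyde-metabolising genes (2.86%, beside 3.51% of all genes).

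Of the called lysosomal genes, 4 were cathepsins, the proteases of that organelle. Of 61 cathepsin, V-ATPase and other lysosomal genes, 5 were called higher and none lower, with a median of 0.08. ctsba, a cathepsin B gene, had 1988 counts after HNE and 542 after HDE, beside 986, a ratio of 3.25 (2.95 to 3.58). ctssb.1, a cathepsin S gene, had 2996 counts after HNE and 1326 after HDE, beside 2760, a ratio of 2.00 (1.87 to 2.13). ctsll had 1471 counts after HNE and 719 after HDE, beside 663, and ctso had 176 and 77 counts, beside 122. neu1, a lysosomal sialidase, was called at a ratio of 1.55 (1.35 to 1.78), a call lost under total counts. ctsla, the most abundant by counts, had 30019 counts after HNE and 19638 after HDE, a ratio of 1.35 (1.33 to 1.38), and ctslb, which marks the hatching gland, had a ratio of 0.983 (0.950 to 1.02).

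**Figure D3:**
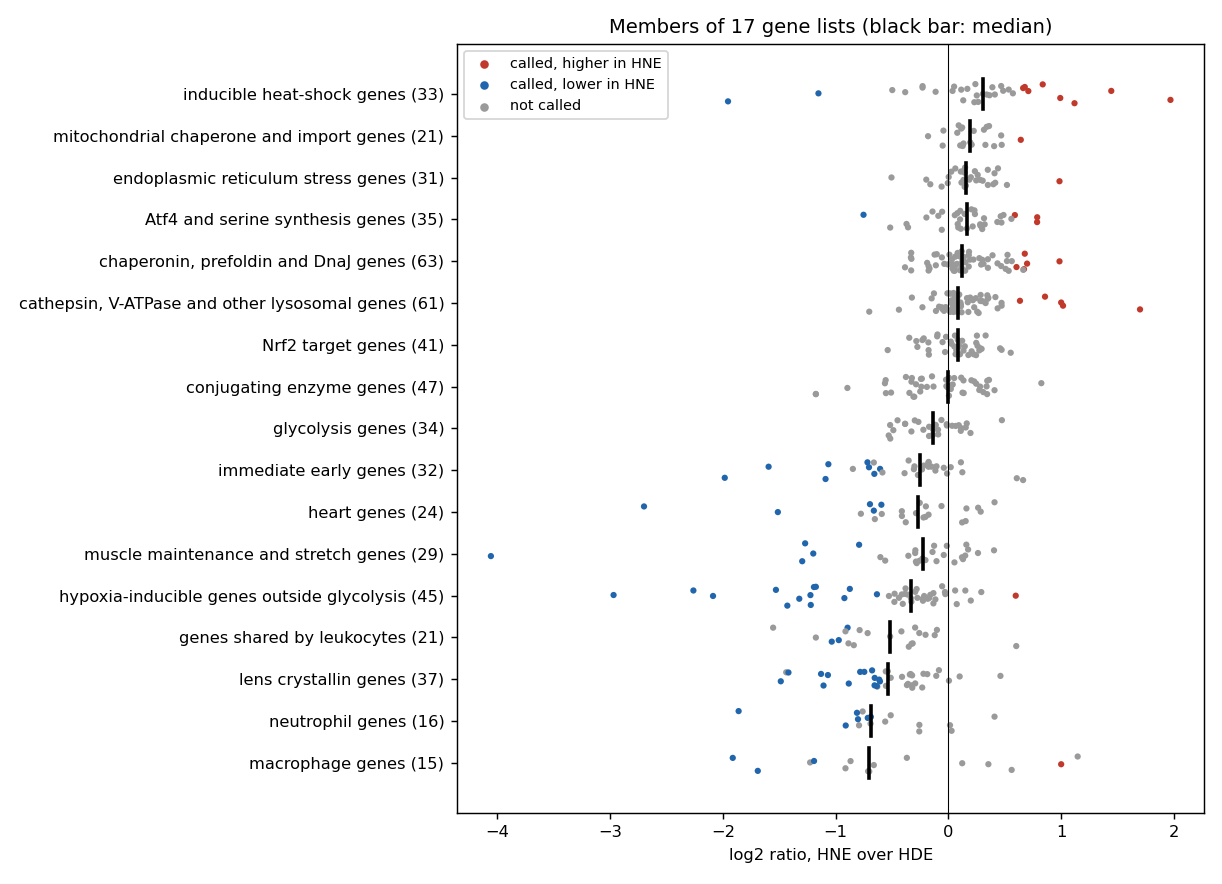
Each point is a tested member of 1 of 17 gene lists, placed at its log2 ratio of HNE over HDE, with red and blue for called genes, grey for the rest, a black bar for the median and the number tested in parentheses. Heat-shock genes spread to the right of 0 up to ahsa1a at 1.97, hypoxia-inducible genes spread to the left down to egln3 at -2.97, and the crystallin and leukocyte lists lie almost wholly below 0.

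The 3 lists of immune cell genes had medians below 0, and most of their members were not called. In bulk RNA of whole embryos, fewer cells of a type and less RNA per cell cannot be told apart. Of 16 neutrophil genes 6 were called lower and none higher, with 13 below 0, 3 above 0 and a median log2 ratio of -0.69. Of 21 genes shared by leukocytes 3 were called lower and 20 lay below 0, with a median of -0.52. Of 15 macrophage genes 3 were called lower and 1 higher, with a median of -0.70 that rested on low counts: over the members with a mean of at least 50 counts it was 0.12. The leukocyte median was -0.34 at that minimum. The medians over the non-treated library were -0.23, -0.47 and -0.47 for HNE in these 3 lists and 0.11, 0.00 and -0.07 for HDE.

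Among neutrophil genes, lyz, which encodes lysozyme, had 289 counts after HNE and 446 after HDE, beside 595, a ratio of 0.573 (0.493 to 0.666). mpx, which encodes myeloperoxidase, had 216 counts after HNE and 308 after HDE, beside 397, a ratio of 0.621 (0.519 to 0.741). npsn had 137 counts after HNE and 228 after HDE, beside 248. HNE was the lowest library for all 3 genes in CPM. The study's table of selected genes holds lyz, mpx, mpeg1.1 and coro1a. They were selected from these same libraries as depleted after HNE and not significant after HDE. Their low values after HNE restate that selection. The HDE library lay below the non-treated library for lyz and mpx, whereas npsn stood at 14.7 CPM after HDE beside 14.0 CPM without treatment. ncf1, a subunit of the phagocyte NADPH oxidase, had 14 counts after HNE and 45 after HDE, beside 27. The 3 most abundant members of the list were not called. nccrp1 and pnp5a had ratios of 1.01 (0.912 to 1.12) and 1.02 (0.893 to 1.16), and cebpa had 0.836 (0.7415 to 0.943). The matrix metalloproteinase genes mmp9 and mmp13a, which neutrophils share with other cells, had log2 ratios of -0.81 and -0.72. mmp9 had 132 counts after HNE and 205 after HDE, beside 146, and mmp13a had 150 and 218, beside 144. For both, HDE was the high library and HNE was near the non-treated library.

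Among macrophage genes, mpeg1.1, which encodes the pore-forming protein perforin-2, had 21 counts after HNE and 70 after HDE, beside 91, a ratio of 0.266 (0.155 to 0.438). irf8, the transcription factor macrophages need, had 7 counts after HNE and 20 after HDE, beside 24, a ratio of 0.310 (0.111 to 0.762). mfap4 was lower too, with 45 counts after HNE and 91 after HDE, beside 129, but it had a fractional count. The gene called higher was ctssb.1, given above, whose 2996 counts outweigh all other members, so the summed level of the list was 205.1 CPM after HNE and 125.7 after HDE although 10 of 15 members lay below 0. csf1ra, a receptor of the macrophage lineage, had 21 counts after HNE and 24 after HDE, and its interval of 0.410 to 1.45 shows how little such counts can resolve.

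Shared leukocyte genes followed. coro1a, an actin regulator of blood cells, had 107 counts after HNE and 194 after HDE, beside 223, a ratio of 0.488 (0.382 to 0.621). lcp1 had 57 counts after HNE and 99 after HDE, beside 113, and spi1b, the PU.1 transcription factor of myeloid cells, had 31 and 51 counts, beside 68. For coro1a and lcp1 the HDE library was near the non-treated library in CPM and the HNE library was the low one. ptprc, named after its values were seen, had 17 counts after HNE and 18 after HDE, and its interval of 0.405 to 1.72 allows either direction. Of 10 cytokine and interferon response genes 3 were called lower, led by the chemokine gene cxcl18b with 32 counts after HNE and 73 after HDE, beside 45, a ratio of 0.388 (0.248 to 0.595). socs3b, a feedback inhibitor of cytokine signalling, had 179 counts after HNE and 299 after HDE, beside 237, and nfkb2 had 257 and 360, beside 363. None of the 5 Cxcl12 axis genes was called, and cxcl12a had a ratio of 1.00 (0.907 to 1.11).

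The lens crystallins gave more called falls than any other tissue list. Crystallins are the structural proteins of the lens fibre cells, in the alpha, beta and gamma classes. Of 37 genes tested 14 were called lower after HNE and none higher, and 34 lay below 0, with a median log2 ratio of -0.54, or -0.35 without the genes that had a fractional count. Over the non-treated library the median was -0.82 for HNE and -0.27 for HDE.

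The classes differed within the family. All 20 gamma M2d genes lay below 0, 13 of them called, with a median of -0.64 and a range of -1.49 to -0.33, but 9 of the 20 had a fractional count. Of those with whole counts, crygm2d16 had 25 counts after HNE and 62 after HDE, beside 55, a ratio of 0.357 (0.215 to 0.576). crygm2d18 had 151 counts after HNE and 288 after HDE, beside 410, a ratio of 0.464 (0.379 to 0.567). crygm2d10 had 665 counts after HNE and 941 after HDE, beside 1266, a ratio of 0.625 (0.565 to 0.691). The 11 beta crystallin genes also lay below 0, with none called and a median of -0.29. crybb1, the most abundant of them, stood at 372 FPKM after HNE and 435 FPKM after HDE, beside 495 FPKM, with a ratio of counts of 0.851 (0.818 to 0.885). cryaa, the 1 alpha crystallin gene tested, had 30 counts after HNE and 71 after HDE, beside 120, a ratio of 0.374 (0.235 to 0.581). The other 5 gamma genes had a median of 0.00, and crygmx had a ratio of 1.00 (0.877 to 1.15).

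Genes of the lens outside the crystallins did not follow. Of 13 tested none was called, with a median of -0.05. mipa and mipb, the aquaporins of lens fibres, had ratios of 0.977 (0.908 to 1.05) and 0.973 (0.898 to 1.05).

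**Figure D4:**
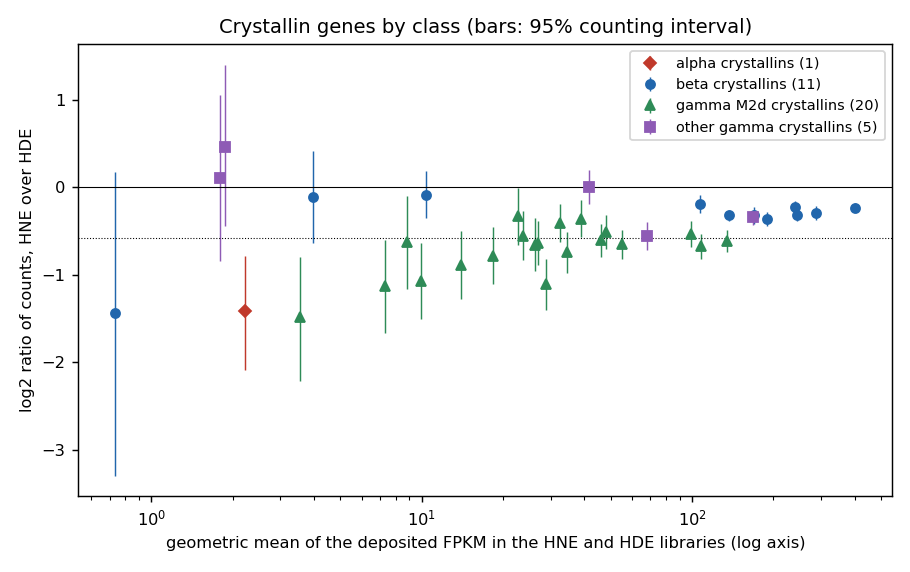
Log2 ratio of counts, HNE over HDE, of the 37 crystallin genes against the geometric mean of their deposited FPKM in the HNE and HDE libraries (log axis), by class, with bars for the 95% counting interval and a dotted line at 1.5-fold lower. The beta crystallins with the highest FPKM sit in a narrow band between -0.37 and -0.19, and the gamma M2d genes range from -1.49 to -0.33.

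In the heart, 5 of 24 genes were called lower after HNE and none higher, with 6 above 0, 18 below 0 and a median of -0.27. The summed level of the list was 1130 CPM after HNE and 1064 CPM after HDE. The natriuretic peptide genes, which respond to load on the heart muscle, had the lowest ratios. nppb had 8 counts after HNE and 46 after HDE, beside 37, a ratio of 0.154 (0.0627 to 0.329). nppa had 57 counts after HNE and 144 after HDE, beside 166, a ratio of 0.350 (0.253 to 0.479). For both, HDE was within 1.5-fold of the non-treated library in counts, and HNE was the low library. The sarcomere genes of the heart differed less: myl7, a cardiac myosin light chain, had 410 counts after HNE and 548 after HDE, beside 596, a ratio of 0.662 (0.581 to 0.754). vmhcl and myh6, myosin heavy chains, had log2 ratios of -0.70 and -0.66, the value of vmhcl being -0.40 on log2(FPKM + 0.1), and vmhc, at 0.819 (0.751 to 0.894), was not called. actc1a and rbfox1l, which with vmhc were the 3 most abundant members, lay above 0 without a call. actc1a had 11654 counts after HNE and 8594 after HDE, beside 11853, with a log2 ratio of 0.263. rbfox1l had 2760 and 2187 counts, beside 2725, with a log2 ratio of 0.159.

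In muscle the called falls lay among genes of stretch and maintenance, most of which were not called, and not among the sarcomere genes. Of 29 stretch and maintenance genes 5 were called lower and none higher, with 8 above 0 and a median of -0.23. The 3 most abundant, murcb, unc45b and klhl41b, had ratios of 1.12 (1.07 to 1.165), 1.13 (1.07 to 1.19) and 0.972 (0.923 to 1.02). tcap, which encodes telethonin at the Z-disc, had 23 counts after HNE and 339 after HDE, beside 168, a ratio of 0.0600 (0.0375 to 0.0916) and a log2 ratio of -4.06, the lowest among called genes that had whole counts and 50 reads or more where they were higher. Its HNE value was the lowest and its HDE value the highest of the 3. flnca, a filamin C gene, had 603 counts after HNE and 1225 after HDE, beside 801, a ratio of 0.436 (0.395 to 0.481). ankrd1a, fhl1a and xirp1, all linked to mechanical strain, had log2 ratios of -1.3, -1.27 and -0.79. Of 51 skeletal sarcomere genes 1 was called, acta1a, an alpha-actin gene, with 11524 counts after HNE and 6086 after HDE, beside 13296, a ratio of 1.68 (1.62 to 1.73). actc1b, tpma and atp2a1 had ratios of 1.09, 1.03 and 1.07. The median of the sarcomere list was 0.04, a sign that turned under total-count scaling.

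All calls among immediate early genes were lower after HNE. These genes answer within minutes to growth signals and stress. Of 32 tested 8 were called lower and none higher, with 27 below 0 and a median of -0.25. fosab, the c-Fos gene, appears under 2 identifiers, and the one with more reads had 55 counts after HNE and 147 after HDE, beside 65, a ratio of 0.331 (0.238 to 0.454). fosl2 had 189 counts after HNE and 350 after HDE, beside 220, and junba had 43 and 81, beside 45. For these the HDE library was the high one and HNE was near the non-treated library. dusp5, nr4a2b, egr1 and csrnp1a completed the calls, from -0.72 to -0.61 on the log2 scale.

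Of 40 caspase and Bcl2-family genes 6 were called lower (15%) and none higher, beside 2.30% of all genes called lower. The list median was -0.04, with 24 members below 0 and 16 above. bbc3, which encodes the death protein Puma, had 37 counts after HNE and 87 after HDE, beside 53, so that the non-treated library lay between. The calls also included mcl1b, a survival gene, with 1295 counts after HNE and 2188 after HDE, beside 1593, and the initiator caspase genes casp9 and casp8, with log2 ratios of -1.0 and -0.80, so that genes for and against cell death were both among the falls. The 3 most abundant members, cycsb, parp1 and casp3a, were not called, with ratios of 1.12 (1.07 to 1.16), 1.11 (1.06 to 1.17) and 1.02 (0.956 to 1.09).

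Nrf2 targets and conjugating enzymes gave no call between the enals. None of 41 Nrf2 target genes was called, with a median of 0.08, and the medians over the non-treated library were 0.13 for HNE and 0.11 for HDE. Over all genes 3.51% were called, a share at which lists of this size hold few calls. The absence of calls alone therefore does not set these genes apart. None of 47 genes for glutathione transferases, sulfotransferases and glucuronosyltransferases was called, with a median of -0.01. gstp1, a glutathione transferase, had 5320 counts after HNE and 3969 after HDE, beside 2832, a ratio of 1.19 (1.14 to 1.24). sult6b1, a sulfotransferase, had 1346 counts after HNE and 1086 after HDE, beside 701, with a ratio of 1.1 (1.01 to 1.19). cbr1 and cbr1l, carbonyl reductases that act on lipid aldehydes, had ratios of 1.07 (0.898 to 1.28) and 1.11 (1.02 to 1.2), and abcb6a, a mitochondrial transporter linked to heme, had 1.06 (0.836 to 1.35). For all 5 of these genes both enal libraries lay above the non-treated library, and the intervals of the ratio stayed below 1.5. The study selected these 5 genes, and ctsc below, from the same libraries as significantly higher after HNE than without treatment. Their place above the non-treated library after HNE restates that selection. nqo1, a quinone reductase, had a ratio of 1.13 (1.06 to 1.2). ctsc, a lysosomal protease that activates enzymes of neutrophil granules, had 1805 counts after HNE and 1152 after HDE, beside 1168, a ratio of 1.39 (1.29 to 1.49), below the threshold.

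The regulators of the pathway gave 2 calls of 17. bach1a, a repressor that competes with Nrf2 for its binding sites, had 89 counts after HNE and 178 after HDE, beside 115, a ratio of 0.443 (0.339 to 0.574). bach1b had 196 counts after HNE and 272 after HDE, beside 196, a ratio of 0.638 (0.528 to 0.769). Among genes named after their values were seen, hmox1a, heme oxygenase, had 454 counts after HNE and 274 after HDE, beside 406, with a ratio of 1.47 (1.26 to 1.71), and nfe2l2a, the Nrf2 gene, had 0.859 (0.776 to 0.951). keap1a and keap1b had ratios of 1.18 (0.988 to 1.42) and 1.01 (0.903 to 1.12). None of 14 aryl hydrocarbon receptor genes was called. cyp1a, the best known target of that receptor, had 930 counts after HNE and 873 after HDE, beside 141, and the interval of its ratio, 0.943 (0.859 to 1.03), included 1.

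**Figure D5:**
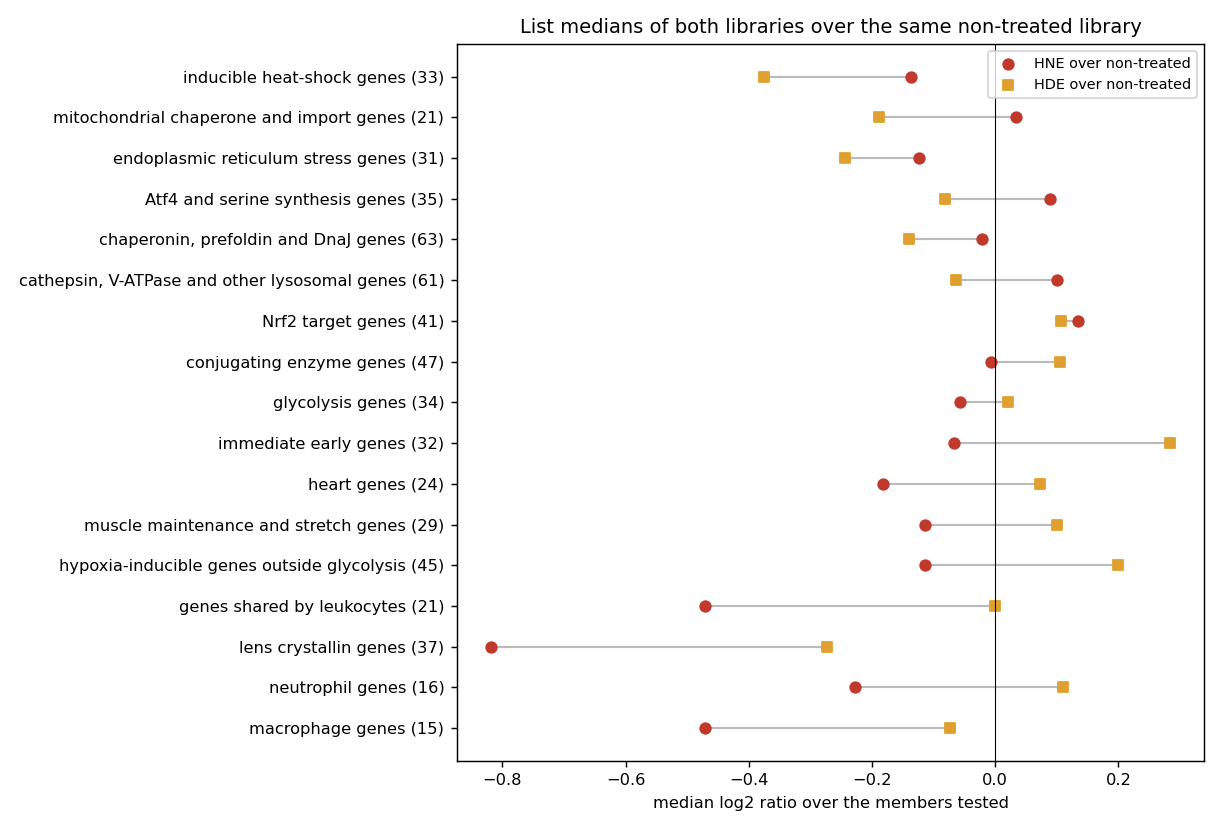
Median log2 ratio of 17 gene lists for the HNE library (circles) and the HDE library (squares), each over the same non-treated library, with the number of genes tested in parentheses. The Nrf2 target genes have nearly the same medians for both enals (0.13 and 0.11), whereas the hypoxia-inducible and immediate early lists lie above 0 for HDE (0.20 and 0.28) and the lens crystallins lie below 0 for both.

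Cytochrome P450 genes outside family 1 gave 6 calls higher and 1 lower among 51 tested, with a median of 0.24, or 0.05 over members with a mean of at least 50 counts. Some of the called genes act on vitamin D, and these rest on few reads. None of them was called at an assumed coefficient of variation of 0.1 between libraries. CYP27B1, which makes the active hormone, had 45 counts after HNE and 12 after HDE, beside 37, a ratio of 3.32 (1.73 to 6.89), and cyp2r1, which acts before it, had 76 and 30 counts, beside 53. cyp24a1, which degrades the hormone, had 55 counts after HNE and 79 after HDE, beside 46, a ratio of 0.616 (0.428 to 0.880). cyp2aa3 had 1337 counts after HNE and 734 after HDE, beside 1364. Of 41 ABC transporter genes 3 were called higher and 1 lower. The 3 were abcd4, a lysosomal transporter, and abcf2a and a second ABCF2 gene, which belong to the class that acts on ribosomes rather than in membranes. The call of that second gene was lost under both total-count scalings. abcf2a had 2441 counts after HNE and 1223 after HDE, beside 2072, a ratio of 1.77 (1.65 to 1.89).

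Clock and light-responsive genes were called in both directions, 4 higher and 2 lower of 36. soul5, a gene for a heme-binding protein, had 122 counts after HNE and 38 after HDE, beside 13, a ratio of 2.84 (1.96 to 4.20). lonrf1 had 578 counts after HNE and 322 after HDE, beside 118. bhlhe41, a repressor within the clock, had 110 counts after HNE and 47 after HDE, beside 67. For soul5 and lonrf1 both enal libraries lay above the non-treated library. The cryptochrome genes cry3 and cry4 were called lower after HNE than after HDE. cry3 had 249 counts after HNE and 341 after HDE, beside 246, and cry4 had 440 and 619, beside 411. For both, HDE was the high library and HNE was near the non-treated library. The list medians over the non-treated library were 0.36 for HNE and 0.50 for HDE, and the hour of collection is not given per library in the sources used here.

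Lipid and cholesterol genes gave few calls. Of 34 fatty acid and peroxisome genes 1 was called higher and 3 lower: dgat2, which makes triglycerides, had a ratio of 1.51 (1.28 to 1.79) that missed the fold threshold under total counts, and angptl4, fads2 and acox3 had log2 ratios of -0.92, -0.75 and -0.68. Of 29 cholesterol synthesis genes 22 lay below 0 and 1 was called (3.45%, beside 3.51% of all genes). It was fdft1, squalene synthase, at 0.599 (0.453 to 0.788), with a log2 ratio of -0.57 on log2(FPKM + 0.1), short of the threshold. Among 31 endothelial genes 26 lay below 0, with a median of -0.16. pecam1 was the 1 called (3.23%), with 185 counts after HNE and 251 after HDE, beside 242.

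Several tissue lists gave no call, beside 3.51% of all genes called, and for short lists this does not by itself set a tissue apart. None was made among 11 globin, 9 hatching gland and 14 pancreas and gut genes: hbae3, an embryonic globin, had a ratio of 0.921 (0.896 to 0.947), he1a, the hatching enzyme, had 0.994 (0.974 to 1.01) and fabp2, of the gut, had 0.960 (0.907 to 1.02). The lists of notochord, glia, cartilage, photoreceptor, red cell, liver, proteasome, respiratory chain, mitochondrial DNA, cell cycle, heme synthesis, iron handling and actin turnover genes gave no call either, nor did the 1 ribosomal RNA gene tested. krt4, the most abundant keratin gene by counts, had 290216 counts after HNE and 259741 after HDE, a ratio of 0.989 (0.984 to 0.994), and elavl3, a marker of neurons, had 0.967 (0.927 to 1.01). Single calls stood in other lists, some of them higher after HNE than after HDE. mnx1, a motor neuron factor, had 87 counts after HNE and 45 after HDE, beside 87. wt1b, of the pronephros, had 52 and 20, beside 42. her4.4, a Notch target, had 72 and 30, beside 155, so both enal libraries lay below the non-treated library. The 1 call among 39 epidermis and keratin genes, zgc:171226, had 22 counts after HNE and 6 after HDE and was lost under both total-count scalings. xdh, of purine breakdown and in the pigment cell list, and col17a1b, a collagen of the basal skin, were lower, with log2 ratios of -0.80 and -0.82. slc12a10.3, an ion transporter, was lower on few reads. It had 4 counts after HNE and 18 after HDE, beside 13, a ratio of 0.197 (0.0484 to 0.597). arg2, an arginase gene, was the 1 called of 16 polyamine and amino acid catabolism genes, with 113 counts after HNE and 155 after HDE, beside 145. Of 50 Hox genes 1 was called higher, and of 29 clustered protocadherin genes 1 was called higher and 2 lower, all of them genes with a fractional count. Among the ribosomal protein genes 84 of 86 lay above 0 with none called, and their median of 0.13 became 0.08 under total counts. Of 6 ponzr genes, a zebrafish family of cysteine-rich proteins, ponzr3 had 4 counts after HNE and 52 after HDE, beside 36, and ponzr4 had 5 and 33, beside 27, while ponzr2 had a ratio of 1.03 (0.649 to 1.63).

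Of the called genes, 517 belonged to no list, and those with whole counts that reached 1000 counts in either library, a rule set after the values were seen, numbered 24, with 8 higher and 16 lower. mat2aa, which makes S-adenosylmethionine, the methyl donor of the cell, had 9818 counts after HNE and 4073 after HDE, beside 5719, a ratio of 2.13 (2.06 to 2.21). slc1a4, a transporter of neutral amino acids, had 2004 counts after HNE and 1005 after HDE, beside 1233, and slc27a2a, which activates fatty acids, had 4798 and 2442, beside 3533. umps, of pyrimidine synthesis, had 1411 counts after HNE and 785 after HDE, beside 1132. Among the falls, fn1b, a fibronectin gene, had 4169 counts after HNE and 9670 after HDE, beside 6569, a ratio of 0.382 (0.368 to 0.396). ppp1r15a, which restores translation after stress, had 516 counts after HNE and 1429 after HDE, beside 741, a ratio of 0.320 (0.288 to 0.354). mknk2b, a kinase of the translation factor eIF4E, had 2231 counts after HNE and 4546 after HDE, beside 2847, and wsb1 had 1933 and 3659, beside 2098. txnipa, which limits glucose uptake in mammals, had 5286 counts after HNE and 7461 after HDE, beside 5596, and g6pca.2, a glucose-6-phosphatase gene, had 851 and 1324, beside 1006. pck1, the gene for the gluconeogenic enzyme PEPCK, which was among the 12 largest falls, had 172 counts after HNE and 640 after HDE, beside 264, a ratio of 0.238 (0.20 to 0.282).

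Genes with a fractional count gave some of the most extreme values and are uncertain. Of the 651 called, 47 had a fractional count in at least 1 library. foxd3, a neural crest factor, was listed at 0 counts after HNE and 267 after HDE, beside 389, a ratio of at most 0.00994 with the HNE library set to a floor of 3 counts. mafbb was at 0 and 87 counts, beside 181. Both genes were chosen after their values were seen.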

How the data were processed

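Poly(A) RNA of whole zebrafish embryos was sequenced as directional single-end libraries, 1 per condition. Per the labels and the study's methods, the authors trimmed reads with cutadapt 1.8, mapped them to GRCz10 with TopHat2 2.1 and made FPKM values with Cufflinks 2.2 (Cuffnorm). The deposited count table was taken to hold expected counts, since 575 of the tested genes have a fractional value. Whether the reads of those genes were shared between similar genes was not tested. The tool that made the table, and whether it used strand, are not given in the sources used here. Counts were rounded to whole numbers. FPKM values deposited by the authors served for levels between genes and as an alternative unit. No annotation of the authors' build was used, so no coordinate or sequence is given.

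Libraries were scaled by TMM (edgeR 4.0.16, R 4.3.3) on the genes that averaged 10 counts or more. Each gene was tested with an exact two-sided binomial test (scipy 1.17.1, Benjamini-Hochberg over 18563 genes), with a fold threshold of 1.5 and a floor of 3 counts; intervals are Clopper-Pearson at 95%. With 1 library per condition no test of replicates exists, and intervals cover counting error only. Reads carry no molecular identifiers, so copies of the same molecule could not be told apart from separate reads. The script was tested on simulated data. The genes, the 62 lists and the rule for named genes were chosen with earlier results of these data known. The rule names 10 genes of the study's own table, the 12 largest rises and 12 largest falls among called genes with whole counts and 50 reads or more where they were higher, and, of each list, up to 5 called and the 3 most abundant members. The study selected the 10 genes of its table from these same libraries. Genes outside it were named after their values were seen: ca9, crygm2d10, crygmx, csf1ra, csrnp1a, cyp1a, ddit4, egln1a, egln2, egr1, epo, ero1l, foxd3, higd1a, hmox1a, hsp70.2, hsp90aa1.2, hspa4a, hspb1, keap1a, keap1b, lepa, mafbb, nfe2l2a, nr4a2b, pfkfb3, pfkfb4a, ptprc, vegfaa and vhl, with the abundant genes of no list. 1 of the lists is not reported here. List names were matched to the file's symbols or, failing that, to current symbols by gene identifier. Alternatives covered scaling (size factors of DESeq2 1.42.0, and library totals, also after leaving out the 20 most abundant genes), filters, fold thresholds, an assumed spread in edgeR's exact test and FPKM. A planned search for motifs in promoters was not run.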

Additional observations from a re-analysis of the deposited data

How the results depend on the processing

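No paired analysis was possible because each condition has 1 library. The count of 651 called genes ranged from 492 to 703 under the other scalings, the filters and without genes with a fractional count, and was 658 on log2(FPKM + 1) without a test. It was 248 at 2-fold, 3093 with no fold threshold, 1765 past 1.5-fold with no test and 1742 on log2(FPKM + 0.1). Allowing for a spread between libraries that the data cannot give, edgeR's exact test called 106 genes at an assumed coefficient of variation of 0.1, 19 at 0.2, 2 at 0.4 and 0 with the dispersion estimated from all 3 libraries as one group, where 405 genes had an unadjusted p under 0.05. The 19 included tcap, egln3, ankrd37, p4ha1b, pck1, nppb, ponzr3, hspb9 and egln2, and no heat-shock gene that was higher. They also included foxd3 and mafbb, which were the 2 called at 0.4 and are uncertain because of a fractional count.

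Total counts moved the median log2 ratio over all genes by -0.055, and total counts without the 20 most abundant genes by -0.048. The median of skeletal muscle sarcomere genes turned to -0.015 and -0.009 under these, and that of macrophage genes to 0.122 at a mean of at least 50 counts, where the ponzr median was -0.046. Without genes with a fractional count the lens crystallin median was -0.351. The same scalings gave medians of -0.216 and -0.209 for endothelial, -0.071 and -0.064 for Notch pathway, -0.073 and -0.067 for collagen, 0.10 and 0.106 for endoplasmic reticulum stress, 0.075 and 0.081 for ribosomal protein, -0.041 and -0.034 for respiratory chain, -0.017 and -0.011 for mitochondrial DNA, and 0.026 and 0.032 for lysosomal genes, and total counts gave -0.051 for proteasome genes. On log2(FPKM + 1) the leukocyte median was -0.272, where the pseudocount compresses low genes. Among genes named by the rule, no called gene changed direction, and 9 lost the call or the fold under some alternative: ABCF2 (2 of 2), asns, badb, dgat2, dnajb11, fdft1, neu1, vmhcl and zgc:171226. Genes named after their values were seen were not run one by one under these alternatives. Of these, higd1a lies so close to the fold threshold that the shift under total counts takes it below. Depth limits genes under about 50 counts, as the intervals of csf1ra and ptprc show. Promoter motifs were not analysed here.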
